A study of Mus musculus with 4 samples.

Results

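The 10 genes described here, Rhoj, Il33, Klk6, Fmnl2, Pkp4, Cdc14a, Gab2, Mcmdc2, Serpina3n and Shroom3, were taken by symbol from the 46983 genes counted in single-nucleus RNA sequencing of mouse forebrain after stroke. They were picked because values from these same data had linked them to oligodendrocytes in the injured brain, so their levels in oligodendrocyte-like nuclei are a description and carry no test. Each of the 4 libraries came from 3 injured or control hemispheres of 3-month-old C57Black/6 males, pooled as frozen tissue. The groups were sham control and days 1, 3 and 7 after permanent middle cerebral artery occlusion (MCAO) under isoflurane, in which the artery was coagulated and cut. The operation leaves a small infarct in the parietal cortex, so a hemisphere also holds tissue outside the lesion. With 1 library per group there was no biological replicate, and the intervals below are 95% intervals that cover counting error only.

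Several features of the libraries bear on every value. The numbers of nuclei that the study lists per time point fit the libraries as deposited only after an exchange of the labels day 3 and day 7. The deposited labels were kept, so the order of the 2 later time points cannot be told apart from a label exchange. The surgical protocol in the labels names cortex as control tissue, whereas the series design names hemispheres, and 341 nuclei of the sham library had the markers of striatal projection neurons. The study calls the control tissue intact and refers to earlier work for the effect of sham surgery. It does not state for these nuclei whether the controls were operated, so sham is the word of the label. The libraries held 23285489 to 42963698 unique molecular identifiers (UMIs, 1 per captured RNA molecule), 1019 to 3098 nuclei were kept in each, and any 2 libraries shared 0 to 3 barcodes. Clusters were named from marker genes, and the members were left out of the genes used for clustering. Of 7811 nuclei, 1163 were oligodendrocyte-like, with 322 in sham, 160 at day 1, 430 at day 3 and 251 at day 7. All 16 oligodendrocyte markers were detected in each library and summed to 18182 to 23531 CPM in these nuclei. Levels are given in CPM, the UMIs of a gene per 1000000 UMIs of all nuclei of a class in a library. The nuclei at day 1 were deeper, where the median nucleus held 3087.5 UMIs, beside 2025 in sham, 1854.5 at day 3 and 2322 at day 7.

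Oligodendrocytes wrap axons in myelin, and injury or disease can shift them into states in which immune and stress genes are transcribed beside the myelin program. The 10 genes fall into several roles. Rhoj is a small GTPase close to Cdc42, a switch that controls the actin skeleton, and Fmnl2 is a formin that elongates actin filaments below such GTPases. Il33 is a nuclear cytokine of the interleukin-1 family that is released from damaged cells, Klk6 is a secreted serine protease found in myelinating cells, and Serpina3n is a secreted inhibitor of serine proteases. Pkp4 is a junctional armadillo protein, Gab2 is a docking adaptor for receptor signalling, Shroom3 is an actin-binding protein that shapes cells, Cdc14a is a protein phosphatase and Mcmdc2 belongs to the minichromosome maintenance family and acts in meiosis.

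The genes did not move as 1 group after MCAO. A ratio to sham was read where a gene had at least 20 UMIs in both libraries together, and a gene was called higher or lower at 2-fold. At day 1, 9 of the 10 genes met the UMI minimum and 3 were higher, Rhoj, Cdc14a and Mcmdc2, where 3.4% of 8326 genes were higher. At day 3, 8 met it, Rhoj and Klk6 were higher, where 3.03% of 9239 genes were, and Shroom3 was lower, where 2.24% were. At day 7, 8 met it and only Rhoj was higher, where 2.22% of 8472 genes were. None of the 10 was lower at day 1 or day 7, where 4.79% and 4.87% of genes were. Il33, Fmnl2, Pkp4 and Gab2 stayed within 2-fold of sham at each of the 3 days. Serpina3n did not reach the UMI minimum, and Mcmdc2 reached it only at day 1, through the library in which it was high. Since the genes were chosen on these data, nothing is read from their share against that of all genes.

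**Figure D1:**
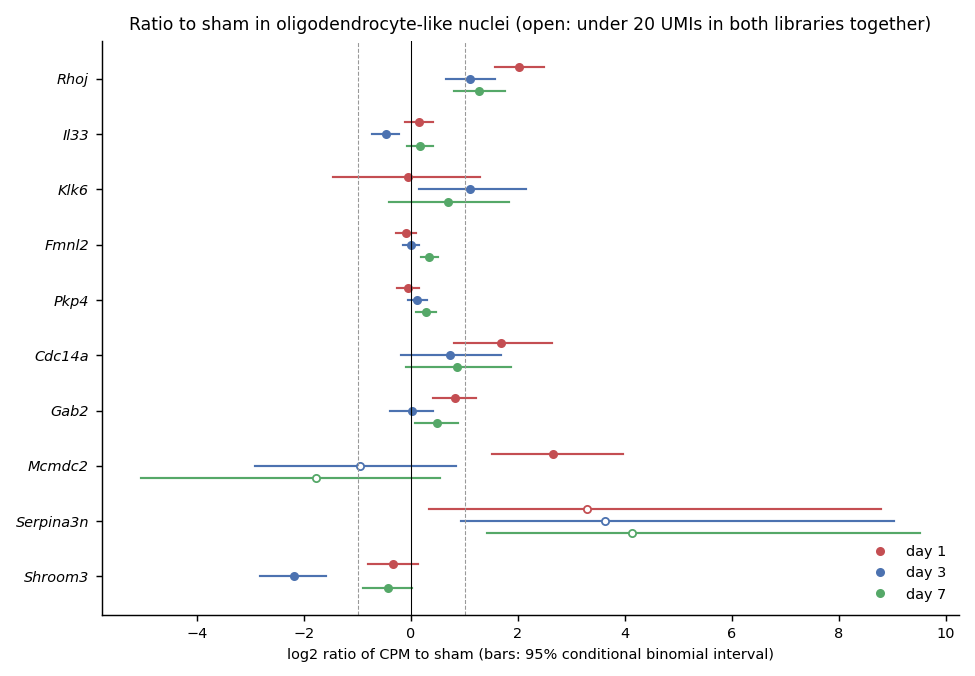
Log2 ratio of CPM to sham in oligodendrocyte-like nuclei for the 10 genes at day 1, day 3 and day 7, with 95% conditional binomial intervals as bars, dashed lines at 2-fold and open circles where both libraries together held under 20 UMIs. Rhoj lies right of the upper line at each day, Cdc14a and Mcmdc2 at day 1, Klk6 at day 3, and Shroom3 lies left of the lower line at day 3.

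Promoter sequence is shown for Rhoj, Il33 and Serpina3n, because Il33 and Serpina3n were found more often in oligodendrocyte-like nuclei with Rhoj than in those without it after MCAO. The sequences are the 250 bases before a RefSeq start in GRCm38.p6, 5′ to 3′ on the plus strand, and capitals mark motif matches on either strand. In the Rhoj promoter, chr12:75308063-75308312, the capitals are a SOX match (ACAATG, read on the other strand) 27 bases before the start.
Rhoj: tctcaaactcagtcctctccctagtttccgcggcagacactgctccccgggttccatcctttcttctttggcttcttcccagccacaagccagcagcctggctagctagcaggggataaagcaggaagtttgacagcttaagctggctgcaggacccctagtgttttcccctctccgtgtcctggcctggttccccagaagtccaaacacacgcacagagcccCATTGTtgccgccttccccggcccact
In the first Il33 promoter, chr19:29924863-29925112, they are a TATA match (TATAAA) 203 bases before the start, while the second Il33 promoter of RefSeq, chr19:29945540-29945789, holds one 29 bases before its start.
Il33: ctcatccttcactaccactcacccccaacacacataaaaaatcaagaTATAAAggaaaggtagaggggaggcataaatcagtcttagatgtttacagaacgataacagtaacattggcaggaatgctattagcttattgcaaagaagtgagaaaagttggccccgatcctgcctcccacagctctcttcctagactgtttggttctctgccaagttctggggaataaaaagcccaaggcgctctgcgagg
In the Serpina3n promoter, chr12:104406458-104406707, they are NF-kB matches (GGGANNNNCC) 170 and 43 bases before the start.
Serpina3n: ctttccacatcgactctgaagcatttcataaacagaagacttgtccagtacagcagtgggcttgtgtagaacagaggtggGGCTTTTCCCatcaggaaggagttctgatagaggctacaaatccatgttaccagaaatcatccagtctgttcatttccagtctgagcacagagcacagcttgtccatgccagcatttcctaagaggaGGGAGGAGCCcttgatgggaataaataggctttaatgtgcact
Of the 32851 RefSeq promoters of this length, 10.7% held the SOX letters, 12.4% the TATA letters and 17.6% the NF-kB letters. None of the 3 windows held AP-1 (TGANTCA), STAT (TTCNNNGAA), hypoxia response (ACGTG) or CREB (TGACGTCA) letters, which 6.75%, 7.02%, 16.6% and 1.55% of promoters held. A match is a run of letters and not a site, and counts from 3′ libraries do not tell which start was used. RefSeq promoters were matched for 8 of the 10 genes, 14 in all, and Gab2 and Mcmdc2 are only named.

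Rhoj (chr12:75308322-75401456, plus strand, GRCm38) was higher than sham in each of the libraries made after MCAO. Oligodendrocyte-like nuclei held 70.1 CPM of Rhoj in sham (95% Poisson interval 52.9 to 91.0, 56 UMIs), 285 CPM at day 1 (243 to 332, 163 UMIs), 151 CPM at day 3 (127 to 177, 146 UMIs) and 169 CPM at day 7 (140 to 203, 116 UMIs). The interval in sham overlaps none of the other 3, and the interval at day 1 overlaps none of the others, while those at day 3 and day 7 overlap. Rhoj was 4.06-fold of sham at day 1 (95% conditional binomial interval 2.98 to 5.61), 2.15-fold at day 3 (1.57 to 2.98) and 2.41-fold at day 7 (1.74 to 3.38). From day 1 to day 3 the Rhoj level changed 0.53-fold (0.421 to 0.666), and from day 3 to day 7 it changed 1.12-fold (0.871 to 1.44). Of the day 1 UMIs of Rhoj, 32 of 163 lay in 1 nucleus of 8728 UMIs, which also held 43 of the 230 Il33 UMIs, 18 of 121 of Gab2, 6 of 37 of Cdc14a and 5 of 9 of Klk6. With the nucleus richest in Rhoj left out of each library, the log2 ratios were 1.86, 1.17 and 1.34.

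**Figure D2:**
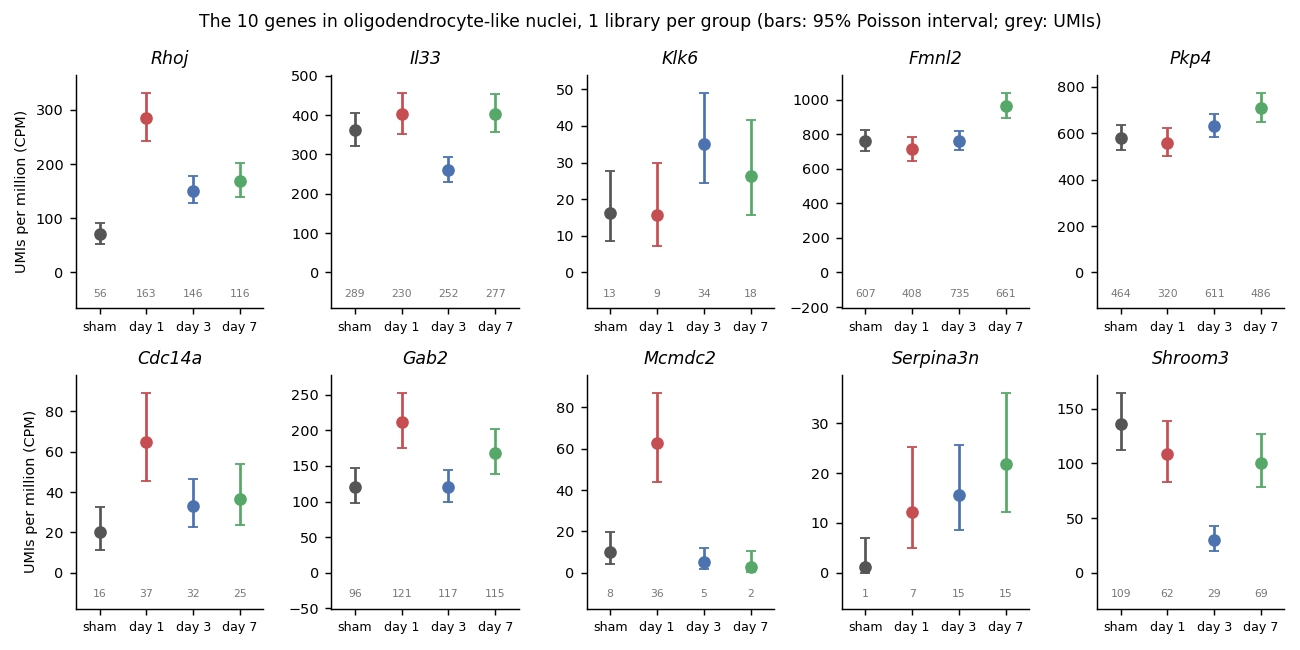
CPM of each of the 10 genes in oligodendrocyte-like nuclei of the 4 libraries, with 95% Poisson intervals as bars and UMI counts in grey. Rhoj, Cdc14a and Mcmdc2 are highest at day 1, Klk6 and the lowest value of Shroom3 fall at day 3, and Serpina3n lies above its single sham UMI at each day after MCAO.

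Rhoj was also found in more nuclei after MCAO. A UMI of Rhoj was present in 40 of 322 oligodendrocyte-like nuclei in sham (12.4%), 51 of 160 at day 1 (31.9%), 88 of 430 at day 3 (20.5%) and 69 of 251 at day 7 (27.5%). Thinned to 1000 UMIs per nucleus, the expected shares of nuclei with Rhoj were 6.81%, 16.2%, 12.4% and 14.4%, whereas a single random draw gave 8.07%, 12.5%, 12.6% and 17.5%. Both sets put sham lowest, and they differ on whether day 1 or day 7 was highest. In glutamatergic-neuron-like nuclei, which should hold little Rhoj, the unthinned shares were 1.02%, 6.78%, 4.29% and 5.64% at median depths of 10223, 16034.5, 8938 and 10756 UMIs, and the expected thinned shares were 0.119%, 0.598%, 0.52% and 0.554%. The shares in oligodendrocyte-like nuclei were above these in each library.

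The depth of the nuclei differed between libraries, so Rhoj was also read within ranges of depth. In oligodendrocyte-like nuclei of at most 2000 UMIs, Rhoj stood at 97.7 CPM in sham, 235 at day 1, 142 at day 3 and 171 at day 7. In nuclei of 2000 to 5000 UMIs it stood at 69.1, 274, 166 and 172 CPM, and above 5000 UMIs, with only 13 to 21 nuclei per library, at 23.2, 321, 128 and 154 CPM. Within each range, Rhoj was lowest in sham and highest at day 1. Giving each nucleus equal weight, the log2 ratios of Rhoj to sham were 1.64, 0.96 and 1.11, so that day 3 then fell just under 2-fold. On the thinned draw, which kept 30 Rhoj UMIs in sham, 28 at day 1, 67 at day 3 and 58 at day 7, the log2 ratios were 0.91, 0.74 and 1.31, and days 1 and 3 were both under 2-fold. The sums expected from thinning give the equal-weight ratios, so the values of 0.91, 0.74 and 1.31 belong to this 1 random draw.

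Rhoj is known from endothelial cells in many tissues. In oligodendrocyte-like nuclei, the summed level of the 14 endothelial markers was 63.8, 22.7, 79.6 and 52.5 CPM in sham and at days 1, 3 and 7, with 8 to 12 of them detected. Microglial markers summed to 149, 276, 327 and 246 CPM in the same nuclei and were higher after MCAO than in sham. Astrocyte markers summed to 568, 517, 965 and 645 CPM, markers of newly formed oligodendrocytes to 1451, 1230, 1299 and 2281 CPM, and fibroblast markers to 36.3, 10.5, 70.3 and 27.7 CPM. The part of these marker sets in the levels of Rhoj, Serpina3n and the other 8 genes was not tested.

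Genes for proteins through which Cdc42-like GTPases act on actin were read next. Of the Cdc42 and Rac effectors and formins, 17 or 18 of 27 met the minimum. At day 1, the effector Cdc42ep2 was lower, at 14.0 against 51.3 CPM (0.27-fold, 0.11 to 0.589), as was the formin Diaph3, at 8.74 against 28.8 CPM (0.30-fold, 0.0901 to 0.816). None of those that met the minimum was higher past 2-fold at day 1, or past it in either direction at day 3 or day 7.

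Fmnl2 (chr2:52857860-53133804, plus strand) was read at 760 CPM in sham, 713 at day 1, 760 at day 3 and 964 at day 7, from 408 to 735 UMIs per library. The level of Fmnl2 at day 7 was 1.27-fold that of sham (1.13 to 1.42), and the ratios at days 1 and 3 were 0.94 and 1.00. Its interval at day 7, unlike the intervals at days 1 and 3, lies above 1. A gene model of unknown function on the other strand, Gm26603, shares 3794 bases with Fmnl2 and had 4, 1, 2 and 1 UMIs in the 4 libraries. Since it is not given whether counting used strand, reads of both in these bases cannot be told apart.

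Il33 (chr19:29925114-29960718, plus strand) was already transcribed in the sham library and was not higher past 2-fold after MCAO. It stood at 362 CPM in sham (289 UMIs), 402 at day 1 (230 UMIs), 260 at day 3 (252 UMIs) and 404 at day 7 (277 UMIs). The lowest level of Il33 was that at day 3, at 0.72-fold of sham (0.606 to 0.855), while day 1 was at 1.11-fold (0.930 to 1.33) and day 7 at 1.12-fold (0.944 to 1.32). Il33 was found in 42.9%, 49.4%, 32.8% and 48.2% of oligodendrocyte-like nuclei in the 4 libraries, with expected thinned shares of 28.0%, 25.9%, 21.3% and 28.3%. In glutamatergic-neuron-like nuclei, the expected thinned shares of Il33 were 0.307%, 0.39%, 0.433% and 0.296%.

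The genes through which cells sense IL-33 were read in the same nuclei. Il1rl1, which encodes the IL-33 receptor ST2, had 0 UMIs in oligodendrocyte-like nuclei of all 4 libraries. Il1rap, the co-receptor shared with other interleukin-1 cytokines, stood at 481 CPM in sham and 592, 542 and 538 CPM after MCAO. Of 11 receptor and signalling genes, 8 met the UMI minimum. The kinase Irak4 was higher at day 1, at 33.2 against 12.5 CPM (2.65-fold, 1.17 to 6.39), and at day 3, at 33.1 CPM (2.64-fold, 1.27 to 6.03). The kinase Irak2 was lower at day 1, at 12.2 against 30.0 CPM (0.41-fold, 0.148 to 0.974), and at day 7, at 13.1 CPM (0.44-fold, 0.179 to 0.974). Each Irak ratio rests on 7 to 32 UMIs per library.

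Klk6 (chr7:43824499-43832030, plus strand) was rare, with 13 UMIs in sham, 9 at day 1, 34 at day 3 and 18 at day 7, or 16.3, 15.7, 35.1 and 26.3 CPM. Its ratio to sham was 0.97 at day 1, 2.16 at day 3 (1.11 to 4.46) and 1.61 at day 7 (0.747 to 3.58). Klk6 at day 3 is therefore just past 2-fold with an interval that reaches to nearly 1. Of 17 other kallikreins, protease-activated receptors and serpins, only 3 met the UMI minimum. Serpine2, an inhibitor of thrombin, was lower at day 1, at 14.0 against 30.0 CPM (0.47-fold, 0.181 to 1.07). Klk8, a protease that acts at synapses, had 0, 4, 2 and 0 UMIs, and Klk7 had 0 in all 4 libraries.

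Serpina3n (chr12:104406729-104414329, plus strand) was all but missing from sham oligodendrocyte-like nuclei and present at low counts after MCAO. There was 1 UMI in sham (1.25 CPM), 7 at day 1 (12.2 CPM, 4.92 to 25.2), 15 at day 3 (15.5 CPM, 8.68 to 25.6) and 15 at day 7 (21.9 CPM, 12.2 to 36.1). Against the single sham UMI, the ratios were 9.77 (1.26 to 440), 12.4 (1.91 to 521) and 17.5 (2.69 to 736). An equal load of free RNA in every nucleus would give 1.56 CPM of Serpina3n in sham, 5.41 at day 1, 6.55 at day 3 and 3.21 at day 7. The interval at day 1 takes in this background level, and the intervals at days 3 and 7 lie above it.

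Cdc14a (chr3:116272553-116424032, minus strand) stood at 20.0 CPM in sham (16 UMIs), 64.7 at day 1 (37 UMIs), 33.1 at day 3 (32 UMIs) and 36.5 at day 7 (25 UMIs). Cdc14a was thus 3.23-fold of sham at day 1 (1.75 to 6.22), 1.65-fold at day 3 (0.880 to 3.22) and 1.82-fold at day 7 (0.934 to 3.65). Only the day 1 interval lies above 1. On the 1 thinned draw, the Cdc14a ratio was 1.65 at day 1 and turned below sham at days 3 and 7, to log2 ratios of -0.88 and -0.52. At both of these days, 13 of 14 alternative settings kept it above sham. Its paralog Cdc14b stood at 61.3 CPM in sham and 64.7, 43.4 and 40.8 CPM after MCAO, and of 11 partners in the cell cycle 2 or 3 met the UMI minimum with 0 past 2-fold. Another gene model, Gm29151, overlaps Cdc14a and had 0 UMIs.

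Mcmdc2 (chr1:9908638-9942085, plus strand) was high at day 1 alone. It had 8 UMIs in sham (10.0 CPM), 36 at day 1 (62.9 CPM), 5 at day 3 (5.17 CPM) and 2 at day 7 (2.92 CPM). The ratio at day 1 was 6.28 (2.87 to 15.6), and at day 3 it was 0.516 (0.133 to 1.79) from 13 UMIs in all. From day 1 to day 3, the Mcmdc2 level changed 0.0821-fold (0.0252 to 0.21). Of the 12 other minichromosome maintenance and meiotic genes, 1 or 2 met the UMI minimum and 0 were past 2-fold.

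The rise of Mcmdc2 at day 1 came with that of its upstream neighbour. Sgk3, a kinase of the serum- and glucocorticoid-regulated family, ends 7792 bases before Mcmdc2 on the same strand. It stood at 154 CPM in sham oligodendrocyte-like nuclei (123 UMIs), 734 at day 1 (420 UMIs), 243 at day 3 (235 UMIs) and 244 at day 7 (167 UMIs), and its day 1 ratio was 4.77 (3.89 to 5.88). At day 1, Mcmdc2 was found in 17 of 91 nuclei with Sgk3 (18.7%) and in 3 of 69 without it (4.35%), and 32 of the 36 Mcmdc2 UMIs lay in the former. The counts carry no position within a gene, so transcription of Mcmdc2 itself and transcripts that run on from Sgk3 cannot be told apart. Snhg6, a noncoding gene on the other strand, overlaps Mcmdc2 by 127 bases and had 7, 8, 9 and 10 UMIs in the 4 libraries.

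Gab2 (chr7:97081586-97308946, plus strand) stood at 120 CPM in sham (96 UMIs), 211 at day 1 (121 UMIs), 121 at day 3 (117 UMIs) and 168 at day 7 (115 UMIs). Its ratio was 1.76 at day 1 (1.34 to 2.33), 1.01 at day 3 and 1.40 at day 7 (1.06 to 1.85). The level of Gab2 was thus above sham beyond counting error at days 1 and 7, without reaching 2-fold. Its paralog Gab1 stood at 750 CPM in sham and 601, 559 and 731 CPM after MCAO. Ptpn11, which encodes the phosphatase Shp2 that binds Gab proteins, stood at 273 CPM in sham and 294, 312 and 290 CPM. Of 14 genes of this pathway, 12 or 13 met the UMI minimum. The paralog Gab3 was higher at day 3, at 15.5 against 7.51 CPM (2.06-fold, 0.757 to 6.49, from 15 and 6 UMIs), but it met the minimum only through that library and its interval takes in 1. The adaptor Crkl was lower at day 7, at 19.0 against 40.1 CPM (0.47-fold, 0.228 to 0.927).

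Pkp4 (chr2:59160850-59355208, plus strand) stood at 581 CPM in sham, 559 at day 1, 631 at day 3 and 709 at day 7, from 320 to 611 UMIs per library. Its ratios to sham were 0.96, 1.09 and 1.22 (1.07 to 1.39 at day 7). Among 11 other plakophilin and catenin genes, 7 met the UMI minimum, and Arvcf, a catenin of the p120 family, was higher at day 1, at 47.2 against 16.3 CPM (2.90-fold, 1.45 to 6.12).

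Shroom3 (chr5:92683435-92965318, plus strand) was lower past 2-fold at day 3. It stood at 136 CPM in sham (109 UMIs), 108 at day 1 (62 UMIs), 30.0 at day 3 (29 UMIs) and 101 at day 7 (69 UMIs). The ratio to sham was 0.22 at day 3 (0.141 to 0.333), against 0.79 at day 1 (0.572 to 1.09) and 0.74 at day 7 (0.538 to 1.01). Between day 3 and day 7 it changed 3.36-fold (2.15 to 5.38). Shroom3 was found in 19.3% of oligodendrocyte-like nuclei in sham, 21.3% at day 1, 4.42% at day 3 and 18.7% at day 7. It was lower at day 3 than in sham and at day 7 within each range of nuclear depth, and in nuclei of at most 2000 UMIs it had 0 UMIs at day 1, where there were 20 such nuclei. The drop belongs to the library labelled day 3, whichever of the 2 later time points that is. Shroom2, a paralog, stood at 72.6 CPM in sham and 61.2, 59.9 and 91.9 CPM after MCAO. Another paralog, Shroom4, was higher at day 3, at 15.5 against 6.26 CPM (2.48-fold, 0.856 to 8.71, from 15 and 5 UMIs), but it met the UMI minimum only through that library and its interval takes in 1.

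The other genes that the study or the field ties to disease-associated oligodendrocytes were also read. The list was in part chosen on these libraries, so it is not independent evidence of a direction. Beside 3 of the 10 genes it holds 19 others, of which 13 or 14 met the UMI minimum. Sgk3 was higher at day 1, as above. S100a6, a calcium-binding protein, was higher at day 3, at 38.2 against 12.5 CPM (3.06-fold, 1.49 to 6.89), and met the UMI minimum only through that library. The complement gene C4b was higher at day 7, at 84.6 against 31.3 CPM (2.7-fold, 1.66 to 4.51), and the kinase Sgk1 was lower, at 166 against 471 CPM. Apod, a lipid-binding protein, stood at 1791 CPM at day 1 against 897 in sham, just under 2-fold. Among 13 genes of the mature oligodendrocyte, Opalin, a myelin protein, was lower at day 1, at 135 against 292 CPM (0.46-fold, 0.352 to 0.599), and 0 others were past 2-fold. The median log2 ratios of that list were -0.43, -0.13 and -0.15 at days 1, 3 and 7, beside -0.03, -0.01 and -0.09 over all genes.

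Of the 10 genes, 5 differed in level between clusters 17 and 0 of the oligodendrocyte-like nuclei beyond counting error in at least 3 of the 4 libraries. Ratios between or within clusters were read with no UMI minimum. Cluster 0 held 966 nuclei and was led by Prr5l, St18, Aspa and Mog, cluster 17 held 132 and was led by Anln, Hapln2 and Apod, and cluster 25 held 65 and was led by Cnksr3, Cldn14 and Mobp. The marker score, a mean of the 5 highest log2 folds, was 4.494 for oligodendrocyte in cluster 25 and 3.822 for newly formed oligodendrocyte. The latter score was 1.588 in cluster 0 and 2.125 in cluster 17. The part of maturation in the cluster 25 values was not tested. Klk6, Fmnl2 and Shroom3 were higher in cluster 17, and Il33 and Rhoj were higher in cluster 0. In sham, Klk6 stood at 92.6 CPM in cluster 17 and 4.88 in cluster 0, a ratio of 19.0 (4.88 to 107). The Klk6 ratio was 1.90 at day 1, where cluster 17 held 2 UMIs, 5.62 at day 3 (2.63 to 12) and 4.86 at day 7 (1.71 to 13.8). For Il33, the order was the opposite, with 37.0 CPM in cluster 17 and 420 in cluster 0 in sham. The ratios of Il33 between these clusters were 0.0882, 0.189, 0.269 and 0.191, and the highest upper bound of the 4 intervals was 0.49. Fmnl2 was 1.50, 1.82, 2.47 and 1.61 times as high in cluster 17 as in cluster 0, and Shroom3 was 2.61, 3.49, 2.66 and 1.62 times as high. For Rhoj the ratios were 0.46, 0.18, 0.47 and 0.31. The interval took in 1 for Rhoj in sham, for Klk6 at day 1 and for Shroom3 at day 7, and for no other of these ratios. Pkp4 was 1.15, 1.22, 1.41 and 1.53 times as high in cluster 17 and Gab2 1.38, 0.74, 1.6 and 1.91 times, with intervals above 1 for Pkp4 at days 3 and 7 and for Gab2 at day 7. In cluster 25, Pkp4 was 1.75 (1.33 to 2.27), 1.14 (0.745 to 1.67), 1.78 (1.45 to 2.17) and 2.09 (1.65 to 2.63) times as high as in cluster 0. Gab2 was lower there than in cluster 0 at day 1, with 1 UMI (0.0892, 0.0022 to 0.508), and at day 7, with 5 UMIs (0.38, 0.12 to 0.923), and its intervals in sham and at day 3 took in 1. Between clusters 17 and 0, the intervals of Cdc14a, Mcmdc2 and Serpina3n took in 1 in all 4 libraries. The clusters were formed without these 10 genes.

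Differences between time points were also read inside a cluster. Within cluster 0, Rhoj stood at 81.3 CPM in sham, 318 at day 1, 172 at day 3 and 218 at day 7, or 3.91 (2.82 to 5.50), 2.11 and 2.68 times sham. Within cluster 17, which held 4 to 10 UMIs of Rhoj per library, it was 1.57 (0.293 to 8.44), 2.17 (0.626 to 9.47) and 1.84 (0.468 to 8.57) times sham, with intervals that all took in 1. Shroom3 at day 3 was at 0.23-fold of sham in cluster 0, and it was at 0.23-fold in cluster 17 too (0.0969 to 0.489). In cluster 17, Shroom3 was also below sham at day 7, at 0.53-fold (0.276 to 0.968). Klk6 went from 4.88 CPM in sham to 22.9 at day 3 in cluster 0 (4.69-fold, 1.34 to 25.1, from 3 and 16 UMIs), while in cluster 17 it stood at 92.6 and 128 CPM (1.39-fold). Of the 36 Mcmdc2 UMIs at day 1, 35 lay in cluster 0. In cluster 25, the smallest, Shroom3 had 1 UMI in each library and Rhoj had 2, 14, 16 and 0 UMIs in the 4 libraries, or 11.3-fold of sham at day 1 (2.59 to 102). Il33 in cluster 25 was at 0.22-fold of sham at day 3 (0.0968 to 0.45) and 0.44-fold at day 7 (0.209 to 0.884).

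**Figure D3:**
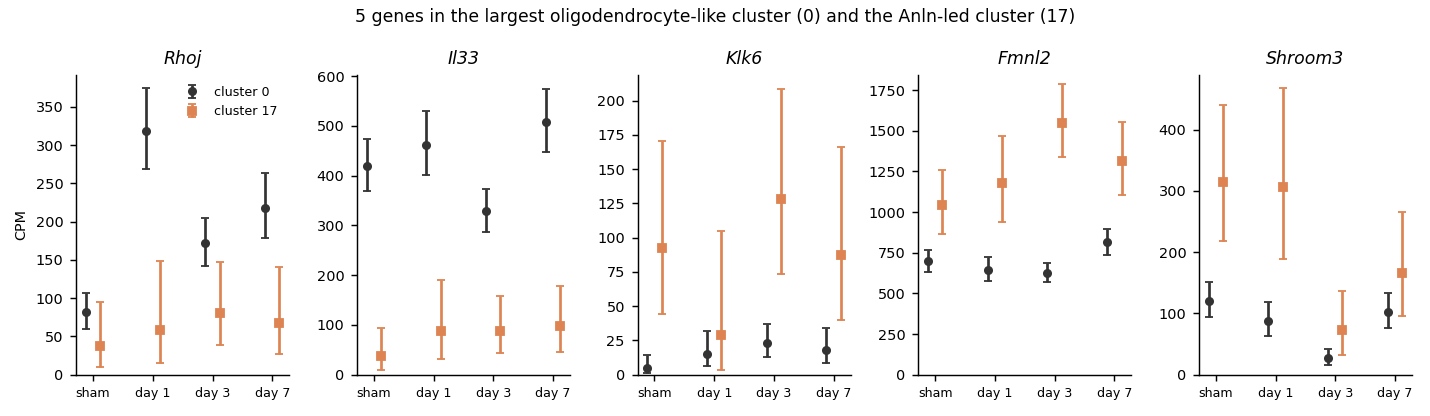
CPM of 5 of the genes in cluster 0 (circles) and cluster 17 (squares) of the oligodendrocyte-like nuclei by library, with 95% Poisson intervals as bars. Il33 and Rhoj are higher in cluster 0 in each library, Klk6, Fmnl2 and Shroom3 are higher in cluster 17, and Shroom3 is lowest at day 3 in both.

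After MCAO, Il33 was found in a larger share of nuclei with Rhoj than of nuclei without it. Il33 was detected in 74.5% of nuclei with Rhoj and 37.6% of those without at day 1, in 50% and 28.4% at day 3, and in 65.2% and 41.8% at day 7. In sham the shares were 52.5% and 41.5%. In CPM, Il33 was 1.26 times as high in nuclei with Rhoj in sham (0.904 to 1.73), 2.69 times at day 1 (2.04 to 3.56), 1.50 times at day 3 (1.14 to 1.97) and 1.83 times at day 7 (1.43 to 2.34). Of the 145 Il33 UMIs in nuclei with Rhoj at day 1, 43 lay in 1 nucleus of 8728 UMIs, which held 32 Rhoj UMIs. The day 1 interval does not allow for such clumping. Nuclei with Rhoj were somewhat deeper, with median depths of 2115, 3400, 2042 and 2586 UMIs against 2020, 2860, 1827 and 2261 UMIs without it.

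After MCAO, Serpina3n followed a like pattern at lower counts. In sham it was found in 0 of 40 nuclei with Rhoj and 1 of 282 without, too few to compare. Serpina3n was detected in 7 of 51 nuclei with Rhoj and 0 of 109 without at day 1, in 6 of 88 and 7 of 342 at day 3, and in 7 of 69 and 3 of 182 at day 7. In CPM, Serpina3n was 3.69 times as high in nuclei with Rhoj at day 3 (1.17 to 12). At day 7, 5 of its 12 UMIs in nuclei with Rhoj lay in 1 nucleus of 5200 UMIs, beside 3 UMIs in the nuclei without. Serpina3n was likewise found in 7 of 79 nuclei with Il33 and 0 of 81 without at day 1, in 9 of 141 and 4 of 289 at day 3, and in 9 of 121 and 1 of 130 at day 7. Among nuclei with Klk6, 0 of 5 had Serpina3n at day 1, 3 of 29 at day 3 and 3 of 12 at day 7, beside 7 of 155, 10 of 401 and 7 of 239 without Klk6. Of the other genes that were high at day 1, Mcmdc2 was found in 5 of 51 nuclei with Rhoj and 15 of 109 without. Cdc14a was found in 9 of 51 and 9 of 109 such nuclei at day 1, and in 11 of 88 and 17 of 342 at day 3. Nuclei of 1 library are not replicates, so these shares describe the 4 libraries, and their relation to cluster and depth was not tested.

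**Figure D4:**
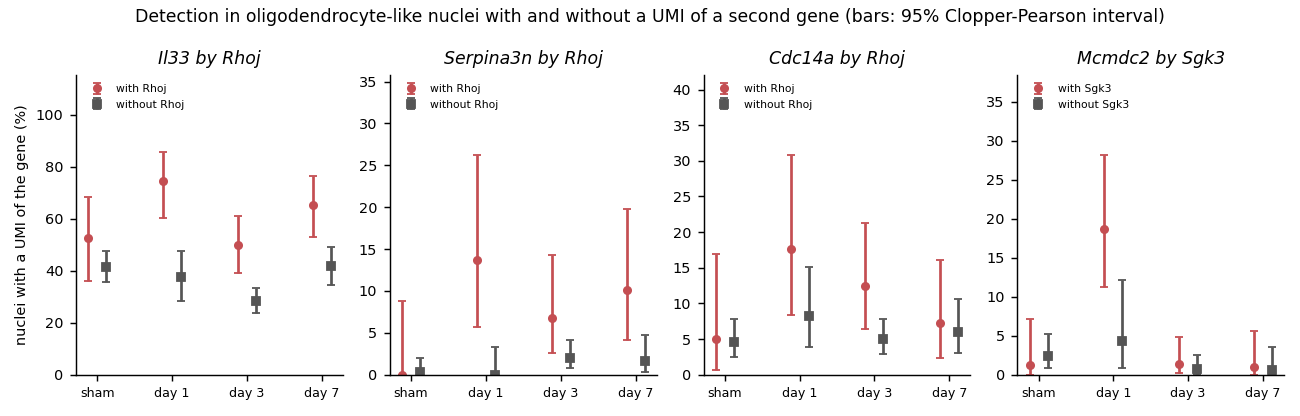
Share of oligodendrocyte-like nuclei with a UMI of Il33, Serpina3n or Cdc14a among nuclei with and without Rhoj, and of Mcmdc2 among nuclei with and without Sgk3, by library, with 95% Clopper-Pearson intervals as bars. The share with Il33 at day 1 is 74.5% with Rhoj and 37.6% without, and Mcmdc2 at day 1 is at 18.7% with Sgk3 and 4.35% without.

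Outside oligodendrocytes, Rhoj was read in each class of nuclei. Endothelial-cell-like nuclei, of which there were 40, 6, 72 and 21, held 129 CPM of Rhoj in sham, 215 at day 1, 179 at day 3 and 247 at day 7, from 20, 7, 78 and 32 UMIs. None of these was past 2-fold of sham, and in each library the interval overlapped that of oligodendrocyte-like nuclei. In oligodendrocyte-precursor-like nuclei, of which there were 58, 35, 100 and 49, Rhoj stood at 17.5 CPM in sham, 135 at day 1, 56.2 at day 3 and 13.7 at day 7. The ratios were 7.71 at day 1 (3.00 to 25.3) and 3.21 at day 3 (1.21 to 10.7), where 5.67% and 6.41% of genes were higher by 2-fold. Rhoj had 5 UMIs in precursors of the sham library and met the UMI minimum only through the libraries where it was high. Of the 34 UMIs of Rhoj in precursors at day 1, 13 lay in 1 nucleus. Astrocyte-like nuclei held 25.5, 33.3, 49.7 and 58.6 CPM of Rhoj, 2.30-fold of sham at day 7 (1.23 to 4.37), where 3.3% of genes were higher. Glutamatergic-neuron-like nuclei held 1.08, 4.88, 5.00 and 5.67 CPM of Rhoj from 6, 21, 39 and 24 UMIs, above the 0.185 to 0.435 CPM that an equal load of free RNA would give, or 4.53, 4.64 and 5.26 times sham, where 3.03%, 1.63% and 2.0% of genes were higher. With 6 UMIs in sham, Rhoj met the UMI minimum in these neurons only through the libraries where it was high.

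Other members reached 2-fold in other glia and vessel cells. Serpina3n in astrocyte-like nuclei stood at 16.1 CPM in sham, 17.6 at day 1, 46.4 at day 3 and 10.9 at day 7. It was 2.88-fold of sham at day 3 (1.49 to 6.01), where 3.17% of genes were higher and where 10 of its 42 UMIs lay in 1 nucleus. Oligodendrocyte-precursor-like nuclei held 1, 7, 16 and 3 UMIs of Serpina3n, and the 17 UMIs in endothelial-cell-like nuclei at day 1 came from 1 nucleus. In the same precursors, Pkp4 was 2.07-fold of sham at day 3 and 2.32-fold at day 7, where 3.83% of genes were higher, and Il33 was 2.69-fold at day 3 (0.989 to 9.14), where it met the UMI minimum only through that library. Microglia-like nuclei held 177 CPM of Fmnl2 in sham and 468 at day 7 (2.64-fold, 1.96 to 3.59), where 5.44% of genes were higher, and 25.7 CPM of Cdc14a in sham and 59.1 at day 3 (2.30-fold, 1.09 to 5.41), where 7.29% were. Endothelial-cell-like nuclei held 181 CPM of Fmnl2 in sham, 460 at day 3 (2.54-fold, 1.70 to 3.92) and 401 at day 7 (2.21-fold, 1.37 to 3.64), where 10.2% and 4.48% of genes were higher. Gab2 in astrocyte-like nuclei was at 204 CPM at day 7 against 102 in sham, at the 2-fold line.

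The remaining calls lay in neurons or in classes of few nuclei. Il33 in striatal-projection-neuron-like nuclei stood at 25.3 CPM at day 1 against 1.53 in sham, where 2.93% of genes were higher, and 28 of its 46 UMIs lay in 1 nucleus. In these neurons, Il33 met the UMI minimum only through the day 1 library. Cdc14a in these neurons was 3.13-fold of sham at day 1 (1.47 to 6.98) and 2.30-fold at day 7 (1.03 to 5.28), where 1.58% of genes were higher. Mcmdc2 in GABAergic-interneuron-like nuclei was lower at day 3, at 10.1 against 21.9 CPM (0.46-fold, 0.218 to 0.931), where 2.29% of genes were lower. In fibroblast-like nuclei, 11 to 50 per library, Pkp4 was higher at days 1 and 7 and Cdc14a at day 3, where 14.0%, 11.7% and 11.3% of genes were. Ependymal-cell-like nuclei had Gab2 higher at day 1, where 8.48% of genes were, and Fmnl2 lower at day 3, where 11.9% were. Choroid-plexus-cell-like nuclei had Fmnl2 higher at day 1, where 13.4% of genes were, and Shroom3 lower at days 3 and 7, where 14.0% and 16.3% were.

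Within each gene, the class with the highest level differed. Gab2 was highest in microglia-like nuclei, at 595, 659, 916 and 875 CPM in sham and at days 1, 3 and 7. Il33 and Klk6 were highest in oligodendrocyte-like nuclei in each library, and Klk6 had 0, 0, 3 and 0 UMIs in precursors and 0, 0, 7 and 5 in glutamatergic-neuron-like nuclei. Shroom3 was highest in ependymal-cell-like and choroid-plexus-cell-like nuclei, which line the ventricles. Ependymal-cell-like nuclei, of which there were 17, 7, 20 and 6, held 443, 393, 467 and 721 CPM of Shroom3, and choroid-plexus-cell-like nuclei, of which there were 8, 2, 7 and 3, held 537, 443, 257 and 194 CPM. Cdc14a was highest in ependymal-cell-like nuclei, at 122, 205, 282 and 789 CPM, or 2.31-fold of sham at day 3 (1.27 to 4.31) and 6.47-fold at day 7 (3.80 to 11.5), where 7.53% and 10.0% of genes were higher. Oligodendrocyte-precursor-like nuclei held 0, 0, 4 and 3 UMIs of Shroom3.

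**Figure D5:**
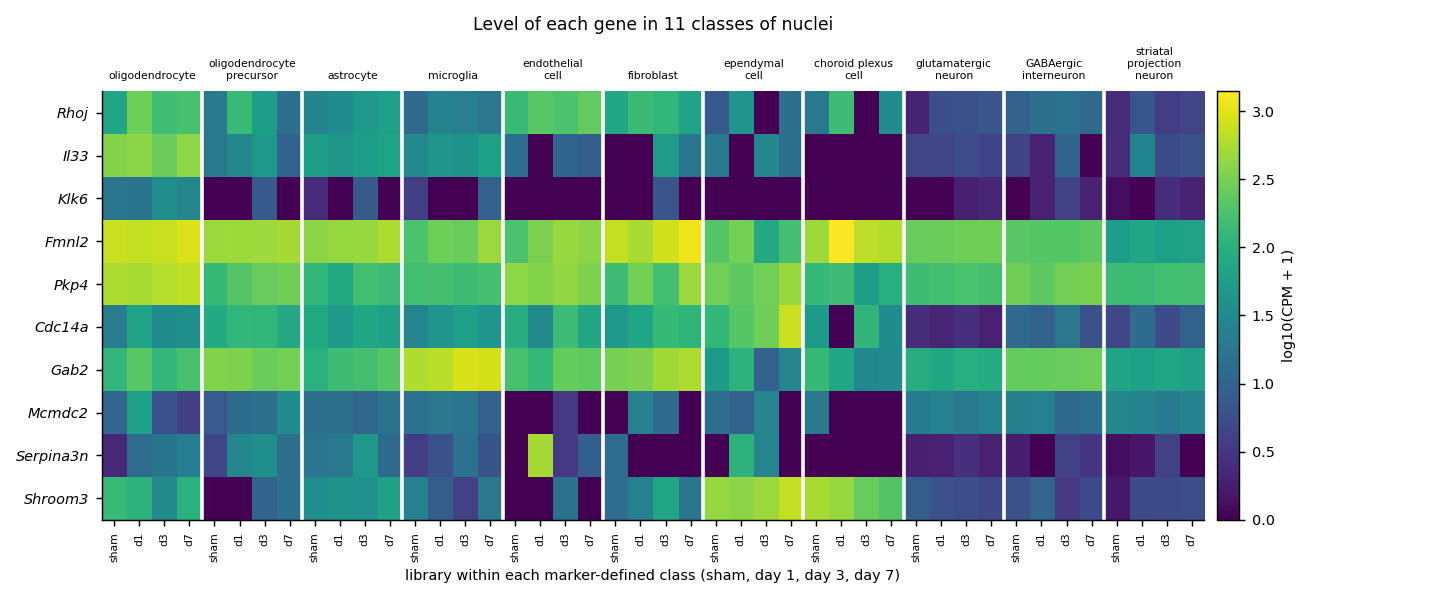
Level of each gene as log10(CPM + 1) by colour, in 11 marker-defined classes with the 4 libraries side by side, to be compared along a row and not between rows. Il33 and Klk6 are brightest in oligodendrocyte-like nuclei, Gab2 in microglia-like nuclei and Shroom3 in ependymal-cell-like and choroid-plexus-cell-like nuclei.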

How the data were processed

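The 4 libraries held frozen-tissue nuclei of mouse forebrain (1 library per group, 3 pooled hemispheres each), prepared with a droplet 3′ kit. The deposited values are raw UMI counts per gene and barcode, which the authors made with STAR 2.7.3a (STARsolo, exonic and intronic reads) on GRCm38 with GENCODE vM8, with UMIs collapsed within 1 mismatch and those assigned to several genes removed. Barcodes were deposited without a filter, and use of strand in counting is not given in the sources used here. Groups came from the labels.

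Nuclei were called with a re-implementation of emptyDrops (ambient profile from barcodes of at most 1000 UMIs, 10000 draws, false discovery rate 0.001). Doublets were scored per library with Scrublet in scanpy 1.11.5 (Python 3.11.15), and the top-scoring 0.8% per 1000 nuclei were removed. Nuclei were normalised and integrated with sctransform 0.4.2 and Seurat 5.3.0 in R 4.3.3 (30 components, resolution 0.8), leaving the 10 genes and the listed genes out of the features. Clusters were named from 197 markers of 15 classes. Free RNA was not subtracted, and between 52.2% and 60.5% of UMIs lay in called nuclei.

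UMIs were summed per class and library. Ratios to sham used at least 20 UMIs in both libraries together, a call at 2-fold, and a floor of 3 UMIs for calls. Intervals are exact Poisson for levels, conditional binomial for ratios and Clopper-Pearson for shares, and with no replicates no test was made. The ratio, its interval and the 2-fold call were tested on simulated Poisson sums, in which UMIs do not clump within nuclei. The other steps were not tested on simulated data. Gene positions are those of GENCODE vM21 on GRCm38. Named genes were the 10 members, list genes past 2-fold (at most 4 per list), their paralogs, receptors and partners, Apod and neighbouring genes added after their values were seen, and the 3 genes most like each member. The 10 genes and the 11 lists, of 175 genes, were chosen with earlier results of these data known, and some list results are not reported here. Alternatives covered scaling (edgeR 4.0.16 and DESeq2 1.42.0 factors), weighting, depth, doublets, integration, resolution, class assignment, free RNA, the richest nucleus and the UMI minimum.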

Additional observations from a re-analysis of the deposited data

How the results depend on the processing

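No paired analysis was possible because each group held 1 library and no result came from a test. Counts of genes past 2-fold and the log2 ratios in oligodendrocyte-like nuclei were recomputed under 17 alternatives, of which 1, keeping only the largest cluster, was chosen after seeing the data. Of 420 log2 ratios, 405 moved by less than their counting interval and 15 by more, 0 values past 2-fold changed sign, and 92 of 102 counts stayed within 1.5 times. Thinning each nucleus to 1000 UMIs in 1 random draw left 0 genes higher at day 1 and 0 at day 3. In that draw, Rhoj had a log2 ratio of 0.91 at day 1, from 28 UMIs against 30 in sham. Mcmdc2 stood at 2.42 but under the UMI minimum. The sums expected from thinning give the ratio with equal weight per nucleus, which kept Rhoj past 2-fold at day 1. The same draw turned Cdc14a to -0.88 at day 3 and -0.52 at day 7. At each of these days, 13 of the 14 alternatives that change its ratio kept Cdc14a above sham. At day 3, 1 gene was higher in the largest cluster alone (Rhoj; Klk6 stood at 4.69-fold there but under the UMI minimum), 1 with at least 50 UMIs (Rhoj) and 1 with the mean CPM over nuclei (Klk6). At day 7, 2 were higher in nuclei above 2000 UMIs (Rhoj, Cdc14a), and 2 with at least 10 UMIs and 2 with no minimum (Rhoj, Serpina3n), the last 2 settings each adding 1 lower gene (Mcmdc2). Over the 14 alternatives that change a ratio, that of Rhoj ranged from 1.88 to 4.92 at day 1, 1.67 to 2.68 at day 3 and 2.16 to 2.88 at day 7, and that of Shroom3 from 0.15 to 0.30 at day 3. Klk6 ranged from 1.62 to 4.69 at day 3 and Mcmdc2 from 5.37 to 9.61 at day 1. The day 3 call of Klk6 was kept under 11 of these 14. In nuclei above 2000 UMIs at day 3, Klk6 fell under 2-fold and Cdc14a passed it, so the count did not change. Without thinning, 32 of 40 shares of nuclei with a UMI moved. Depth limits Serpina3n, Klk6 and Mcmdc2, with at most 36 UMIs in a library.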

Other observations

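The genes whose levels ran most like each of the 10 genes were read over 28 sums, 7 classes in 4 libraries, as Pearson's r of log2(CPM + 10) among 14100 genes. The sums share their libraries and the contrast between classes sets most of each r, so the values are a description. Rhoj ran closest to Apod (0.924), Usp54 (0.923) and Stard13 (0.922), and Il33 to Pla2g16 (0.959), Tnfaip6 (0.956) and Car2 (0.956). Klk6 ran closest to B230206H07Rik (0.936), Fmnl2 to Hipk2 (0.948), Pkp4 to Ano4 (0.940) and Cdc14a to Pdlim5 (0.928). Gab2 ran closest to Vav2 (0.965), Shroom3 to Olfml1 (0.912) and Serpina3n to the complement gene C4b (0.850). Mcmdc2 had no close match, its highest r being 0.602 with Fam71d. With log2(CPM + 1), 18 of the 30 top genes remained among the closest 3, from 1 to 3 for each gene. Among those that did not remain were Apod for Rhoj, C4b for Serpina3n and Fam71d for Mcmdc2.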
